A study of Mus musculus with 15 samples.

Results

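The 10 genes examined here build and load MHC class I in the mouse: the heavy chains H2-K1, H2-D1 and H2-T23, the light chain B2m, the transporter subunit Tap1, the loading factor Tapbp, the immunoproteasome subunits Psmb8 and Psmb9, the proteasome activator subunit Psme1, and Nlrc5, an activator of class I transcription. They were taken by name from a count table of 57186 genes, and all 10 were among the 19839 genes tested. The table holds 15 RNA-seq libraries of RAW 264.7, a macrophage-like line from a virus-induced tumor of a BALB/c mouse. Cells were treated for 6 h with nonporous silica nanoparticles of 100 nm (SNP100, 50 µg/mL) or 50 nm (SNP50, 25 µg/mL), with mesoporous particles of 100 nm (MSNP, 200 µg/mL), with hollow mesoporous particles of 100 nm (HMSNP, 200 µg/mL), or with none (Control), and each group had 3 libraries. The study asked how particle size, porosity and density change gene expression at the highest doses the cells tolerate. Only MSNP and HMSNP were given at the same dose, so the other contrasts between particles carry a difference in dose. The labels do not say whether replicates were separate cultures, and p-values then measure the spread between these libraries.

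In MHC class I presentation, proteasomes cut cytosolic proteins into peptides, the Tap1-Tap2 transporter carries them into the endoplasmic reticulum, and tapasin (Tapbp) bridges the transporter to a heavy chain paired with B2m. Interferon-γ exchanges the constitutive catalytic subunits Psmb5, Psmb6 and Psmb7 for Psmb8, Psmb9 and Psmb10, which gives the immunoproteasome, and it raises the activator Psme1-Psme2. Nlrc5 works with the Rfx5 complex and NF-Y on class I promoters, and macrophages use the pathway to show peptides to CD8+ T cells.

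Total counts per library lay between 29369934 and 42617812, and the lowest count of any of the 10 genes in any library was 243, for H2-T23. All 8 macrophage markers were expressed, the lowest at 41.5 CPM (the count per 1000000 counts of a library, scaled by TMM), whereas the 18 markers of other cell types reached at most 3.82 CPM and 5 of them were at 0 throughout. The library names of each group begin with a number of that group's own, which the labels do not explain, so whatever it marks cannot be told apart from treatment. Control replicate 3 stood apart from the other controls along transcript length: its log2 CPM exceeded their mean by a median of 0.70 in the shortest of 10 length classes of 10652 genes and differed from it by -0.86 in the longest. Of the 10 genes, 8 were higher in that library than in the other controls by more than 0.3 on the log2 scale, Nlrc5 differed by -1.19, and Tap1 by -0.02. The main differences from Control are therefore also given without this library. Control replicates 1 and 2 differed from each other too. The mean chi-square per gene between their counts was 73.1, against 192 and 226 for each of them with Control replicate 3. Between replicates of the treated groups it ran from 4.95 to 15.3.

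**Figure D1:**
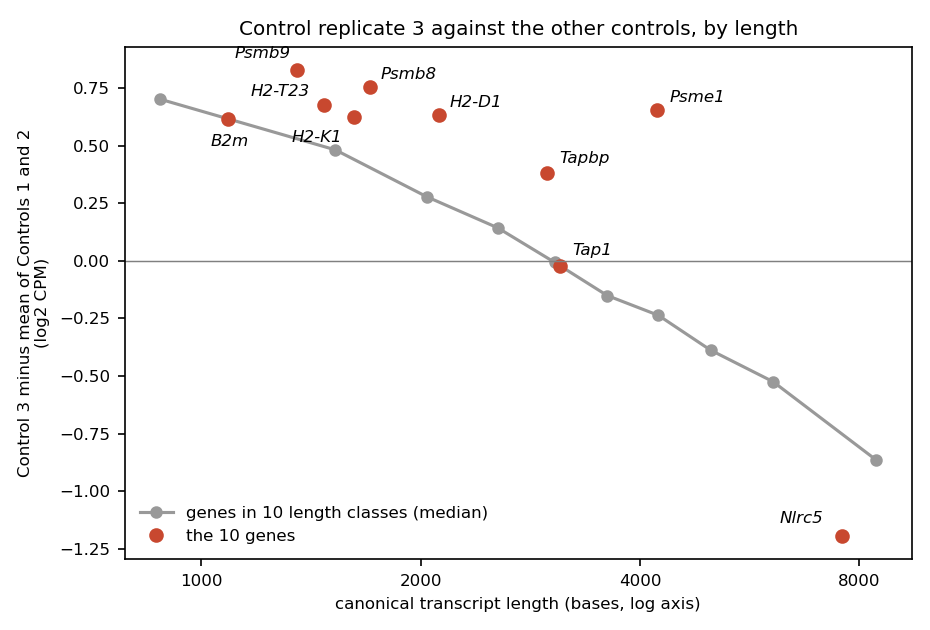
Difference in log2 CPM between Control replicate 3 and the mean of Control replicates 1 and 2 (vertical axis) against canonical transcript length in bases (horizontal log axis), with grey points for the medians of 10 length classes of genes and red points for the 10 genes. The grey line runs from 0.70 to -0.86, Tap1 lies on it at -0.02, and Psme1 lies far above it at 0.65, at a length of 4227 bases that belongs to its canonical transcript.

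On GRCm39, 7 of the 10 genes lie on chromosome 17 in the MHC. Tapbp (chr17:34134873-34148267, plus strand) and H2-K1 (chr17:34214987-34219321, minus) come first, then Psmb9 (chr17:34400960-34406738, minus), Tap1 (chr17:34405996-34416199, plus) and Psmb8 (chr17:34416690-34420428, plus) in direct succession, and farther on H2-D1 (chr17:35481691-35486475, plus) and H2-T23 (chr17:36340229-36345571, minus). B2m is at chr2:121977957-121983594, Psme1 at chr14:55815190-55822034 and Nlrc5 at chr8:95160984-95253900, all on the plus strand. Psmb9 and Tap1 overlap head to head over 743 exonic bases, which make up 19.6% of the exonic length of Psmb9 and 12.4% of that of Tap1. Psme1 overlaps Emc9 on the other strand over 2192 exonic bases and Tapbp overlaps Zbtb22 on its own strand over 923. The libraries were directional, but the strand setting of the counting is not given in the sources used here. BALB/c cells carry another class I haplotype than the reference strain, and the heavy chain genes are close paralogs, so the levels of H2-K1, H2-D1 and H2-T23 are uncertain, and the size of that error was not tested.

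The 300-base windows around the canonical starts (250 bases before and 50 from the start on, GRCm39) were searched on both strands for letters known as regulatory motifs of such genes. The core of class I enhancer A, which NF-κB reads, stood in the window of 1 of the 10 genes, H2-K1, and in 0.124% of 21770 protein-coding windows. These letters were chosen as a motif of class I genes, so that match cannot measure an enrichment. An ISRE-type match (GAAANNGAA, read by interferon regulatory factors) was in 2 of 10 and 8.78% of all, a GAS match (TTCNNNGAA, the interferon-γ-activated site) in 2 of 10 and 8.81%, a CCAAT box (read by NF-Y) in 4 of 10 and 39.9%, and a CRE core (TGACG) in 2 of 10 and 22.6%. The stretches below show 1 match of each kind in genes whose values follow, with the match in capitals, 5′ to 3′ on the gene's strand. Positions count from 1 at the start, with negative numbers before it.
H2-K1, enhancer A at -111 to -102, chr17:34219413-34219442: gcccagggctGGGGATTCCCcatctccaca
H2-D1, GAS at -33 to -25, chr17:35481648-35481676: cgccattgtaTTCCCGGAAgtgacctttc
Tap1, CCAAT at -67 to -63, chr17:34406298-34406322: gctcggctttCCAATcagcggctgc
Psmb8, CRE core at -55 to -51, chr17:34416625-34416649: gcccggtgtgTGACGtcagcagttc
Nlrc5, ISRE-type on the other strand at 4 to 12, chr8:95161012-95161040: agtggccactTTCAGTTTCcacagagcgc
The windows of B2m and Psmb9 held none of the 5. The Psmb9 window (chr17:34406689-34406988) lies inside Tap1, past the canonical start of Tap1 at 34406375. It therefore does not cover the stretch near that start, and its lack of matches says nothing of other stretches. A match is a description of letters, and says nothing of binding in these cells.

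Under MSNP the genes moved in both directions. Against Control, Tap1, Psmb9 and Psme1 were lower and Nlrc5 was higher, 4 of the 10 genes passing an adjusted p of 0.05 (edgeR, quasi-likelihood, Benjamini-Hochberg), where 22.8% of all genes did. Against MSNP at the same dose, HMSNP cells had more Tap1 and Psmb9 (2 of 10, against 20.2% of all genes). The libraries of HMSNP and MSNP did not overlap for any of the 10 genes, 4 of them higher and 6 lower in HMSNP, as they did not for 45.3% of all genes, and those of MSNP and Control did not overlap for 5 of 10, against 33.2% of all genes. HMSNP against Control gave 1 of 10, Tap1, where 5.16% of all genes passed. SNP100 and SNP50 against Control gave 0 of 10 each, where 0.912% and 1.41% of all genes passed. In each, 1 gene of the 10, Tapbp, had an unadjusted p under 0.05, as did 2085 and 2384 of all 19839 genes. DESeq2 also called 0 of the 10 in each, where it called 3.96% and 5.27% of all genes it tested. In fits on the 6 libraries of a comparison alone, MSNP against Control gave 0 of 10 (13% of all genes) and HMSNP against MSNP gave 9 (40.9%). Without Control replicate 3, the counts were 6 under MSNP (29.5% of all genes), 7 for HMSNP against MSNP (33.9%), 2 under HMSNP (8.66%), 1 under SNP100 (5.16%) and 5 under SNP50 (18.9%), and without Control replicate 2 HMSNP against Control gave 8 (25.2%). The comparisons with Control share the same control libraries. In bulk RNA, fewer cells of a kind and less RNA per cell cannot be told apart.

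**Figure D2:**
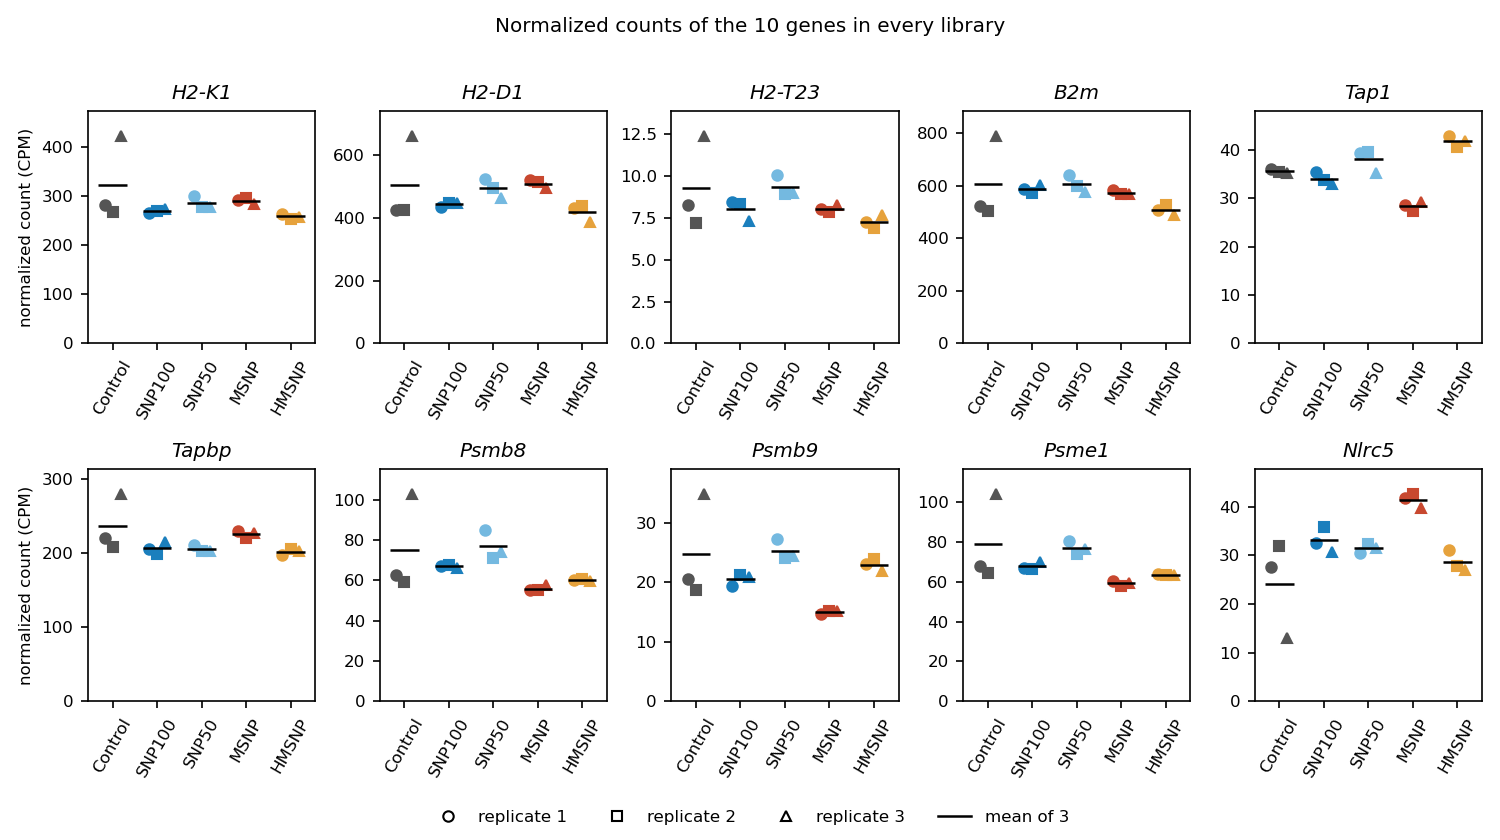
Normalized counts (CPM scaled by TMM, vertical axes from 0) of the 10 genes in all 15 libraries, by group, with symbols for replicates and a bar for the mean of 3. Tap1 and Psmb9 are lowest in the 3 MSNP libraries, Nlrc5 is highest in them, and the triangle of Control replicate 3 sits far from the other controls in 9 of the 10 panels.

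In Control, B2m was the most abundant of the 10 per transcript length (559 CPM per kb on average), followed by H2-D1 (238) and H2-K1 (200), Tapbp (79.2) and Psmb8 (44.0). Psme1 (18.7), Psmb9 (18.2) and Tap1 (11.4) came next, and H2-T23 (6.31) and Nlrc5 (3.19) were last. H2-D1 and H2-K1, and likewise Psme1 and Psmb9, lay within each other's spread among the control libraries. The value of Psme1 rests on its canonical transcript of 4227 bases, and other annotated transcripts of this gene are far shorter.

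None of the heavy chains nor B2m passed in any comparison of the main fit, which used all libraries. With an offset by transcript length, also on all libraries, B2m passed for MSNP against Control (0.14 ± 0.04, adjusted p = 0.0133). In that fit B2m (-0.13 ± 0.04, adjusted p = 0.0206) and H2-D1 (-0.24 ± 0.08, adjusted p = 0.0416, edgeR with Benjamini-Hochberg) passed for HMSNP against MSNP. H2-K1, a classical class Ia heavy chain, had 281, 267 and 423 CPM in Control, 266, 270.5 and 275 under SNP100, 301, 279 and 278 under SNP50, 292, 297 and 283 under MSNP, and 265, 255 and 258 under HMSNP. Every HMSNP value lay under every Control and MSNP value. The log2 fold change of HMSNP against Control was -0.32 ± 0.12 (SE), with an adjusted p of 0.144 in edgeR (Benjamini-Hochberg), and -0.08 ± 0.05 without Control replicate 3. HMSNP against MSNP gave -0.17 ± 0.12 with all libraries (adjusted p = 0.435). Without Control replicate 3 that contrast was -0.18 ± 0.04 and passed (adjusted p = 0.00219, edgeR with Benjamini-Hochberg).

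H2-D1, the other classical heavy chain here, had 426, 425 and 660.4 CPM in Control and 519, 512 and 493 under MSNP. In HMSNP cells the values were 430, 438 and 386 CPM. The MSNP libraries stood above those of HMSNP without overlap, with a log2 fold change of HMSNP against MSNP of -0.28 ± 0.13 that did not pass (edgeR with Benjamini-Hochberg, adjusted p = 0.16) but did without Control replicate 3 (-0.29 ± 0.05, adjusted p = 0.000133). Against Control, MSNP gave 0.01 ± 0.13 with all libraries and 0.26 ± 0.06 without Control replicate 3, where it passed (edgeR with Benjamini-Hochberg, adjusted p = 0.00122).

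B2m, the invariant light chain, had 525, 506 and 790 CPM in Control, 582, 569 and 568 under MSNP, and 507, 528 and 488 under HMSNP. Under SNP100 it had 588, 572 and 603 CPM and under SNP50 643, 600.3 and 576. The treated groups other than HMSNP all lay between Control replicate 3 and the other controls. Without Control replicate 3 it was higher than in Control under SNP100 (0.19 ± 0.05), SNP50 (0.23 ± 0.05) and MSNP (0.16 ± 0.05). It was then lower in HMSNP than in MSNP (-0.18 ± 0.04), each with an adjusted p between 0.00286 and 0.0343 (edgeR with Benjamini-Hochberg). With an offset by transcript length as well, SNP100 (0.09 ± 0.04, adjusted p = 0.246) and SNP50 (0.02 ± 0.04, adjusted p = 0.840) did not pass. MSNP against Control (0.15 ± 0.04, adjusted p = 0.00500) and HMSNP against MSNP (-0.13 ± 0.03, adjusted p = 0.00416) did (edgeR with Benjamini-Hochberg).

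H2-T23, the gene of Qa-1, a nonclassical heavy chain that inhibits natural killer cells, was scarce, with 8.28, 7.20 and 12.4 CPM in Control. MSNP libraries held 8.03, 7.83 and 8.30 CPM and HMSNP libraries 7.26, 6.92 and 7.65. The log2 fold changes against Control were -0.21 ± 0.15 under MSNP and -0.35 ± 0.15 under HMSNP, and 0.07 ± 0.09 and -0.09 ± 0.09 without Control replicate 3, where it also passed in no comparison. The 95% interval of HMSNP against MSNP ran from -0.47 to 0.18 on the log2 scale.

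The peptide transporter subunit was lower under MSNP and higher under HMSNP. Tap1, which pumps peptides into the endoplasmic reticulum, had 36.1, 35.3 and 35.2 CPM in Control, 35.3, 33.7 and 32.9 under SNP100 and 39.2, 39.6 and 35.3 under SNP50. It had 28.6, 27.4 and 29.1 CPM under MSNP and 42.8, 40.6 and 41.8 under HMSNP. All MSNP libraries were lower and all HMSNP libraries higher than every other library of the series. The log2 fold change was -0.33 ± 0.06 for MSNP against Control (0.798-fold, adjusted p = 0.00154) and 0.56 ± 0.06 for HMSNP against MSNP (1.47-fold, adjusted p = 1.06e-05, edgeR with Benjamini-Hochberg). Both passed in 15 of 15 fits that left out 1 library, and without Control replicate 3 the first was -0.32 ± 0.06. The rise under HMSNP against Control was 0.23 ± 0.06 and lay at the threshold (adjusted p = 0.0499), and it was 0.22 ± 0.06 without Control replicate 3. It passed in 4 of those 15 fits, and gave an adjusted p from 0.107 to 0.135 when any 1 of the HMSNP libraries was left out.

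Tapbp, the tapasin gene, differed in a smaller range. It had 220.3, 208 and 279 CPM in Control, 230, 219 and 226 under MSNP and 197, 205 and 203 under HMSNP. The MSNP and HMSNP libraries did not overlap. With all libraries the log2 fold change of HMSNP against MSNP was -0.16 ± 0.09 (adjusted p = 0.253, edgeR with Benjamini-Hochberg), and without Control replicate 3 it was -0.17 ± 0.04 and passed (adjusted p = 0.00350). Against Control, HMSNP gave -0.23 ± 0.09 with all libraries and -0.09 ± 0.05 in that fit, and passed in neither. In that fit Tapbp was lower and Tap1 higher in HMSNP than in MSNP.

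Among Psmb8, Psmb9 and Psme1, the log2 fold changes of Psmb9 were the largest for MSNP against Control and for HMSNP against MSNP. Psmb9, which replaces Psmb6 in the immunoproteasome, had 20.6, 18.6 and 34.8 CPM in Control, 14.6, 15.2 and 15.2 under MSNP and 23, 24 and 21.9 under HMSNP. SNP100 libraries held 19.4, 21.2 and 20.9 CPM and SNP50 libraries 27.3, 24.1 and 24.4. The MSNP libraries were the lowest of all 15. The log2 fold change of MSNP against Control was -0.72 ± 0.17 (0.608-fold, adjusted p = 0.00580) and -0.37 ± 0.07 without Control replicate 3 (adjusted p = 0.000420, edgeR with Benjamini-Hochberg). HMSNP exceeded MSNP by 0.61 ± 0.17 (1.53-fold, adjusted p = 0.0173), which was lost without MSNP replicate 1 (0.59, adjusted p = 0.0505) or HMSNP replicate 2 (0.58, adjusted p = 0.0579). Between HMSNP and Control the sign depended on Control replicate 3, with -0.11 ± 0.17 with it and 0.23 ± 0.07 without it (adjusted p = 0.0483).

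Psmb8, the chymotrypsin-like subunit that replaces Psmb5, had 62.6, 59.2 and 103 CPM in Control, 55.2, 55.2 and 57.5 under MSNP and 60.2, 60.5 and 59.9 under HMSNP. All MSNP libraries lay under all controls, but the log2 fold change of -0.42 ± 0.15 missed the threshold (adjusted p = 0.0605, edgeR with Benjamini-Hochberg) and was -0.11 ± 0.06 without Control replicate 3. It passed without Control replicate 1 (-0.51, adjusted p = 0.0272), without Control replicate 2 (-0.56, adjusted p = 0.00642) and under DESeq2. With an offset by transcript length it passed on all libraries (-0.28 ± 0.08, adjusted p = 0.0112). It did so too with the offset and without Control replicate 3 (-0.15 ± 0.05, adjusted p = 0.0142, edgeR with Benjamini-Hochberg). SNP50 cells had 85.2, 71.3 and 74.2 CPM, above Control by 0.33 ± 0.06 once Control replicate 3 was left out (adjusted p = 0.000844).

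Psme1, the α subunit of the proteasome activator PA28, had 68.1, 64.3 and 104 CPM in Control, 60.4, 58.0 and 59.6 under MSNP and 63.7, 63.6 and 63.3 under HMSNP. Each MSNP value was below each Control value. Its log2 fold change under MSNP was -0.41 ± 0.13 (adjusted p = 0.0350, edgeR with Benjamini-Hochberg) and -0.15 ± 0.05 without Control replicate 3 (adjusted p = 0.0261). The call was lost without any single MSNP library, with adjusted p from 0.0763 to 0.0959. Between HMSNP and MSNP the 95% interval of Psme1 was -0.18 to 0.38.

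Nlrc5 was higher under MSNP, where Tap1 and Psmb9 were lower. This transactivator had 27.6, 32.0 and 13.0 CPM in Control, 32.6, 35.8 and 30.8 under SNP100 and 30.6, 32.3 and 31.6 under SNP50. It had 41.7, 42.6 and 39.7 CPM under MSNP and 31.0, 27.7 and 27.1 under HMSNP. The MSNP libraries were higher than all others. The log2 fold change of MSNP against Control was 0.77 ± 0.21 (1.71-fold, adjusted p = 0.0158) and 0.48 ± 0.08 without Control replicate 3 (adjusted p = 7.92e-05, edgeR with Benjamini-Hochberg). The first of these was lost without MSNP replicate 2 (0.76, adjusted p = 0.0561). HMSNP against MSNP gave -0.53 ± 0.21 (adjusted p = 0.0998), which passed only without Control replicate 3 among the fits that left out 1 library (-0.54 ± 0.07, adjusted p = 4.02e-06).

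**Figure D3:**
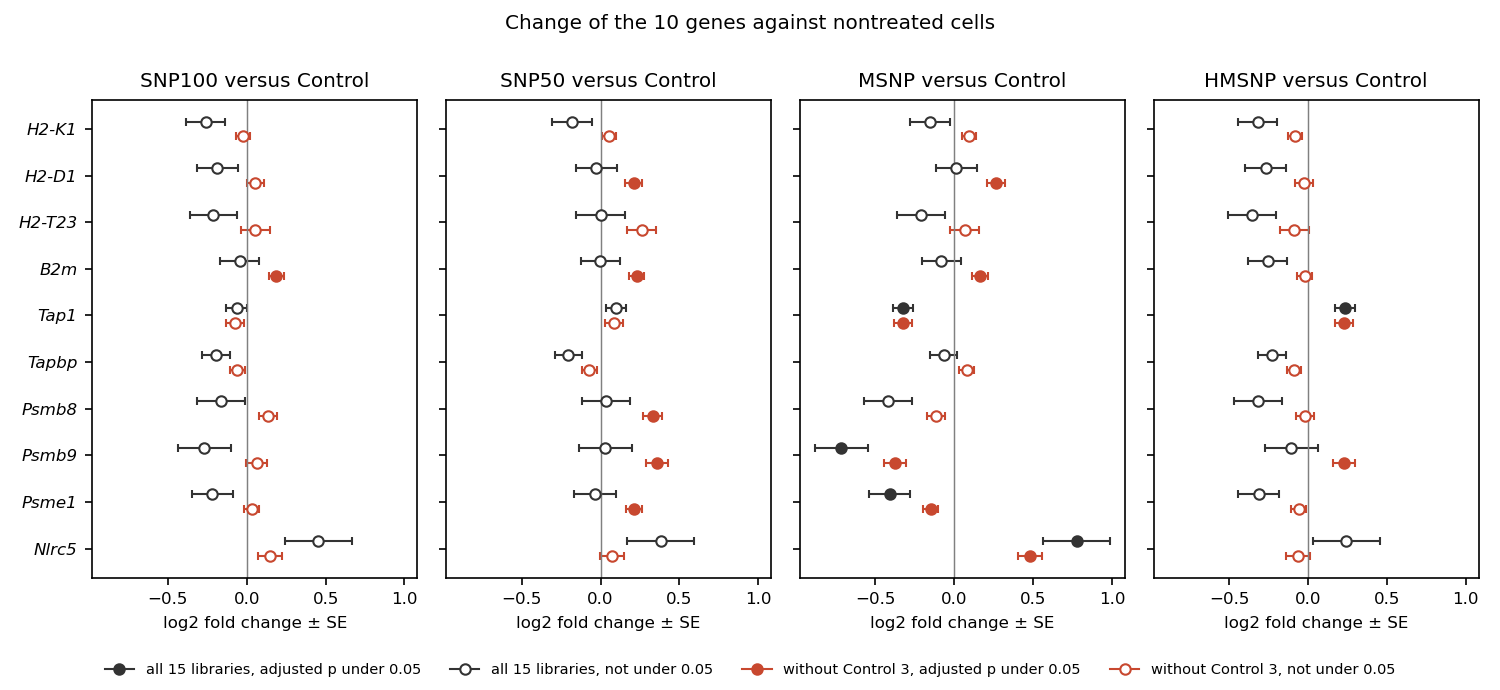
Log2 fold changes (horizontal axes, ± SE) of the 10 genes under each particle against Control, with all 15 libraries in black and without Control replicate 3 in red, filled where the adjusted p was under 0.05. Tap1 keeps its place in both fits (-0.33 and -0.32 under MSNP), whereas most other genes shift to the right and Nlrc5 shifts to the left, from 0.77 to 0.48 under MSNP.

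Between the nonporous particles, which differ in size and dose, SNP50 against SNP100 gave 0 of the 10 genes, and 0% of all genes passed (edgeR with Benjamini-Hochberg). Tap1 was the 1 gene of the 10 with an unadjusted p under 0.05, at 0.16 ± 0.06, where 867 of all 19839 genes had one. DESeq2 called 0 of the 10, and 0.00504% of all genes it tested. For 6 of the 10, the SNP50 libraries lay above the SNP100 libraries without overlap, as they did for 11.6% of all genes. Without Control replicate 3, Psmb9 passed at 0.30 ± 0.06 (adjusted p = 0.0437, against 0.433% of all genes). With an offset by transcript length as well, Psmb9 did not pass (0.20 ± 0.05, adjusted p = 0.0638). Psme1 passed in that fit (0.22 ± 0.04, adjusted p = 0.0310, edgeR with Benjamini-Hochberg, against 0.974% of all genes). Without Control replicate 3 but with no offset, Psme1 did not pass (0.18 ± 0.04, adjusted p = 0.0636, edgeR with Benjamini-Hochberg). Its offset rests on the canonical length of 4227 bases. In Control replicate 3, Psme1 differed from the other controls by 0.65 on the log2 scale. The length class with a median of 4240 bases differed by -0.24 there. Whether the call holds with a shorter length was not tested.

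MSNP against SNP100, both of nominal 100 nm but at 200 and 50 µg/mL, gave 1 of 10, Tap1 at -0.26 ± 0.06 (adjusted p = 0.00967, edgeR with Benjamini-Hochberg), where 17.9% of all genes passed. It was lost without SNP100 replicate 1 (-0.23, adjusted p = 0.0564) or MSNP replicate 2 (-0.24, adjusted p = 0.0529). Without Control replicate 3, which is no part of this contrast, 8 of 10 passed against 33.1% of all genes. Tap1, Psmb8, Psmb9 and Psme1 were then lower under MSNP, with log2 fold changes from -0.44 for Psmb9 to -0.18 for Psme1, and H2-K1, H2-D1, Tapbp and Nlrc5 were higher, from 0.12 for H2-K1 to 0.33 for Nlrc5.

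The paired catalytic subunits were compared within each library, where the scaling of a library cancels. The log2 ratio of Psmb9 to Psmb6, its constitutive counterpart, was -2.66, -2.77 and -2.75 in Control, so Control replicate 3 did not stand apart here. It was -3.94, -3.83 and -3.85 under MSNP and -2.61, -2.57 and -2.64 under HMSNP. The difference in log2 ratio was -1.14 for MSNP against Control and 1.27 for HMSNP against MSNP, in each case without overlap (two-sided exact permutation test, p = 0.1, the smallest that 3 against 3 allows). SNP100 (-3.02, -2.88 and -2.94) and SNP50 (-2.85, -2.83 and -2.80) differed from Control by -0.22 and -0.10, and HMSNP by 0.12 in the opposite direction, also without overlap and at the same p.

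Psmb6 differed as well as Psmb9, with 131, 127 and 235 CPM in Control, 225, 217 and 219 under MSNP and 141, 142 and 136 under HMSNP. Psmb6 was lower in HMSNP than in MSNP (-0.66 ± 0.17, adjusted p = 0.0110) and, without Control replicate 3, higher under MSNP than in Control by 0.78 ± 0.05 (adjusted p = 1.97e-09, edgeR with Benjamini-Hochberg). With all libraries the latter was 0.42 ± 0.17 and did not pass (adjusted p = 0.0877). The other pairs had smaller differences. The log2 ratio of Psmb8 to Psmb5 was 0.32 ± 0.09 (SD, n = 3) in Control and 0.13 ± 0.10 under MSNP, a difference of -0.19, and that of Psmb10 to Psmb7 was higher by 0.22, both without overlap (two-sided exact permutation test, p = 0.1).

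**Figure D4:**
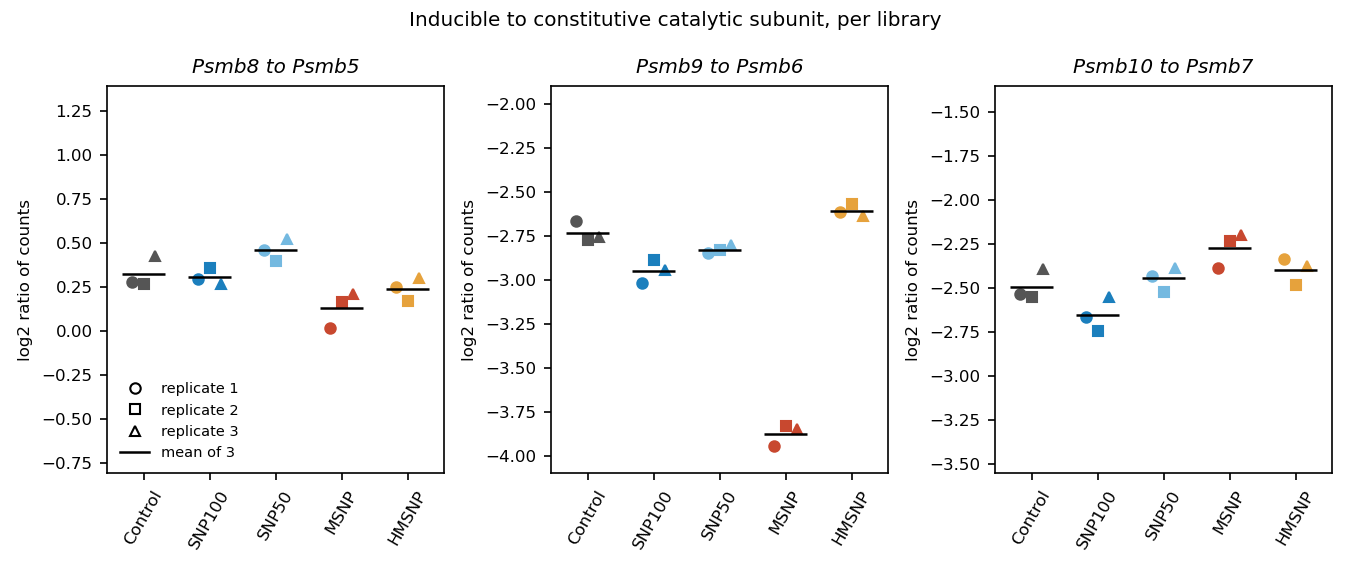
Log2 ratio of counts (vertical axes, all spanning the same range) of each inducible catalytic subunit to its constitutive counterpart in every library, with symbols for replicates and a bar for the mean of 3. The MSNP libraries stand alone in the panel of Psmb9 to Psmb6, between -3.94 and -3.83, while the other groups lie between -3.02 and -2.57.

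Some partners of the 10 genes differed too. Tap2, the other transporter subunit, had 28.9, 28.2 and 42.3 CPM in Control, 25.6, 25.9 and 26.0 under MSNP and 35.4, 35.5 and 36.6 under HMSNP. Tap2 was lower under MSNP than in Control (-0.36 ± 0.12, adjusted p = 0.0419; -0.13 ± 0.05 without Control replicate 3, adjusted p = 0.0745) and higher in HMSNP than in MSNP (0.47 ± 0.12, adjusted p = 0.00970, edgeR with Benjamini-Hochberg). It was the 1 of 6 peptide loading genes to pass in each of these comparisons (22.8% and 20.2% of all genes), and without Control replicate 3 the 1 that passed under MSNP was Calr, which was higher (29.5% of all genes). Tapbpl, a tapasin relative, gave 0.19 ± 0.08 under MSNP, and 0.22 ± 0.08 without Control replicate 3, and passed in neither fit. Psme2, the β subunit of PA28, had 73.0, 72.0 and 120.5 CPM in Control and was lower under MSNP, as Psme1 was, at -0.48 ± 0.15 (adjusted p = 0.0264) with all libraries and at -0.19 ± 0.05 (adjusted p = 0.0113, edgeR with Benjamini-Hochberg) without Control replicate 3. Psmb10, which replaces Psmb7, had 27.9, 27.1 and 50.6 CPM in Control. Its log2 fold change under MSNP was 0.01 ± 0.18 with all libraries and 0.38 ± 0.08 without Control replicate 3, where it passed (adjusted p = 0.000778, edgeR with Benjamini-Hochberg). Psmb5 and Psmb7 gave -0.21 ± 0.13 and -0.18 ± 0.15 with all libraries and 0.03 ± 0.07 and 0.11 ± 0.06 without Control replicate 3, and did not pass. Of 11 shared 20S subunits, 3 passed under MSNP, where 22.8% of all genes did, and were lower, Psma5 at -0.43 ± 0.13, Psma6 at -0.44 ± 0.14 and Psma7 at -0.43 ± 0.14. Control replicate 3 was the highest library for each of them. Leaving it out, 2 of the 11 passed (29.5% of all genes), Psma5 at -0.18 ± 0.05 and Psma6 at -0.17 ± 0.05, while Psma7 gave -0.16 ± 0.06 (adjusted p = 0.0673, edgeR with Benjamini-Hochberg).

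Of 14 class I-like heavy chain genes, 1 passed under MSNP (22.8% of all genes) and 1 under HMSNP (5.16%) against Control. Mr1, which presents microbial vitamin B metabolites to MAIT cells, had 3.59, 3.93 and 3.85 CPM in Control and 7.70, 7.37 and 6.61 under MSNP, with a log2 fold change of 0.93 ± 0.14 (adjusted p = 0.000193, edgeR with Benjamini-Hochberg) and of 0.95 ± 0.16 without Control replicate 3. H2-M3, which presents formylated peptides, had 52.7, 54.1 and 67.4 CPM in Control but 33.4, 32.1 and 35.2 under HMSNP, with a log2 fold change of -0.79 ± 0.09 (adjusted p = 6.52e-05) and of -0.67 ± 0.05 without Control replicate 3. Both also separated HMSNP from MSNP, at -0.75 ± 0.14 for Mr1 and -0.82 ± 0.09 for H2-M3. Of the 14, 4 were higher and 1 was lower under MSNP (29.5% of all genes), and 2 were lower under HMSNP (8.66%), without Control replicate 3.

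Several regulators of class I transcription differed between MSNP and HMSNP. Of 19 regulators, 7 were higher and 1 was lower in HMSNP than in MSNP, where 9.22% and 11% of all genes passed in these directions. The median log2 fold change of the 19 was 0.21, beside 0.00 over all genes tested. Under MSNP against Control, 5 were lower and 2 higher (11% and 11.8% of all genes), and under SNP100 and SNP50 1 each was lower (0.912% and 1.41% of all genes passed). That gene was Irf9, the DNA-binding part of the type I interferon complex ISGF3. It gave -0.59 ± 0.11 under SNP100 (adjusted p = 0.0138) and -0.48 ± 0.11 under SNP50 (adjusted p = 0.0403, edgeR with Benjamini-Hochberg). Without Control replicate 3 it gave -0.62 ± 0.10 and -0.51 ± 0.10. Irf9 was lower under MSNP too, at 10.7, 9.72 and 12.8 CPM, against 20.5, 18.6 and 18.5 in Control. HMSNP libraries held 18.1, 19.7 and 20.4 CPM. HMSNP against Control gave 0 of 19 in edgeR (5.16% of all genes), with Irf2 the closest (0.26 ± 0.08, adjusted p = 0.0828). An unadjusted p under 0.05 was found for 4 of the 19 and for 4771 of all 19839 genes. DESeq2 called 3 of the 19, and 15.1% of all genes it tested. The counts of higher and lower regulators without Control replicate 3 were 11 and 1 for HMSNP against MSNP (33.9% of all genes), and 2 and 7 under MSNP (29.5%), 0 and 2 under SNP100 (5.16%), 1 and 6 under SNP50 (18.9%) and 2 and 1 under HMSNP (8.66%) against Control.

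Rfx5, a DNA-binding subunit of the complex Nlrc5 works with, had 30.2, 30.4 and 18.1 CPM in Control, 14.6, 13.7 and 13.8 under MSNP and 24.9, 25.7 and 25.8 under HMSNP. MSNP libraries were thus the lowest for Rfx5 and the highest for Nlrc5. The log2 fold change of Rfx5 under MSNP was -0.90 ± 0.15 (adjusted p = 0.000297) and -1.10 ± 0.07 without Control replicate 3 (adjusted p = 4.74e-10, edgeR with Benjamini-Hochberg). HMSNP exceeded MSNP by 0.86 ± 0.15 (adjusted p = 0.000483).

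Of the interferon-γ receptor complex, Ifngr1 and Jak2 moved the same way as Rfx5. The kinase Jak1 went the other way under MSNP against Control, and the chain Ifngr2 did not pass there with all libraries. Ifngr1, the ligand-binding receptor chain, was lower under MSNP (-0.74 ± 0.08), as was the kinase Jak2 (-0.71 ± 0.14), each with an adjusted p at or below 0.00123 (edgeR with Benjamini-Hochberg). Leaving out Control replicate 3 gave -0.63 ± 0.05 and -0.90 ± 0.06. In HMSNP against MSNP both were higher, by 0.88 ± 0.08 and 0.81 ± 0.14. Irf2, which binds ISRE sites, was lower under MSNP (-0.79 ± 0.08, and -0.87 ± 0.06 without Control replicate 3) and higher in HMSNP than in MSNP (1.05 ± 0.08). Irf1, the main interferon-γ-induced activator of these genes, did not pass in these comparisons with all libraries (-0.37 ± 0.17, adjusted p = 0.140, and 0.41 ± 0.17, adjusted p = 0.117). Without Control replicate 3 it gave -0.16 ± 0.15 under MSNP and passed in HMSNP against MSNP at 0.40 ± 0.13 (adjusted p = 0.0212, edgeR with Benjamini-Hochberg). Socs1, which inhibits Jak kinases, went the other way at 0.52, 0.49 and 0.60 CPM in Control, 1.42, 1.57 and 0.98 under MSNP and 0.21, 0.27 and 0.50 under HMSNP, with a log2 fold change of 1.29 ± 0.28 under MSNP (adjusted p = 0.00342), and of 1.39 ± 0.32 without Control replicate 3. Jak1, with 145, 176 and 95.2 CPM in Control, was also higher under MSNP, at 0.49 ± 0.15 (adjusted p = 0.0277) with all libraries and 0.29 ± 0.08 (adjusted p = 0.00853, edgeR with Benjamini-Hochberg) without Control replicate 3.

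**Figure D5:**
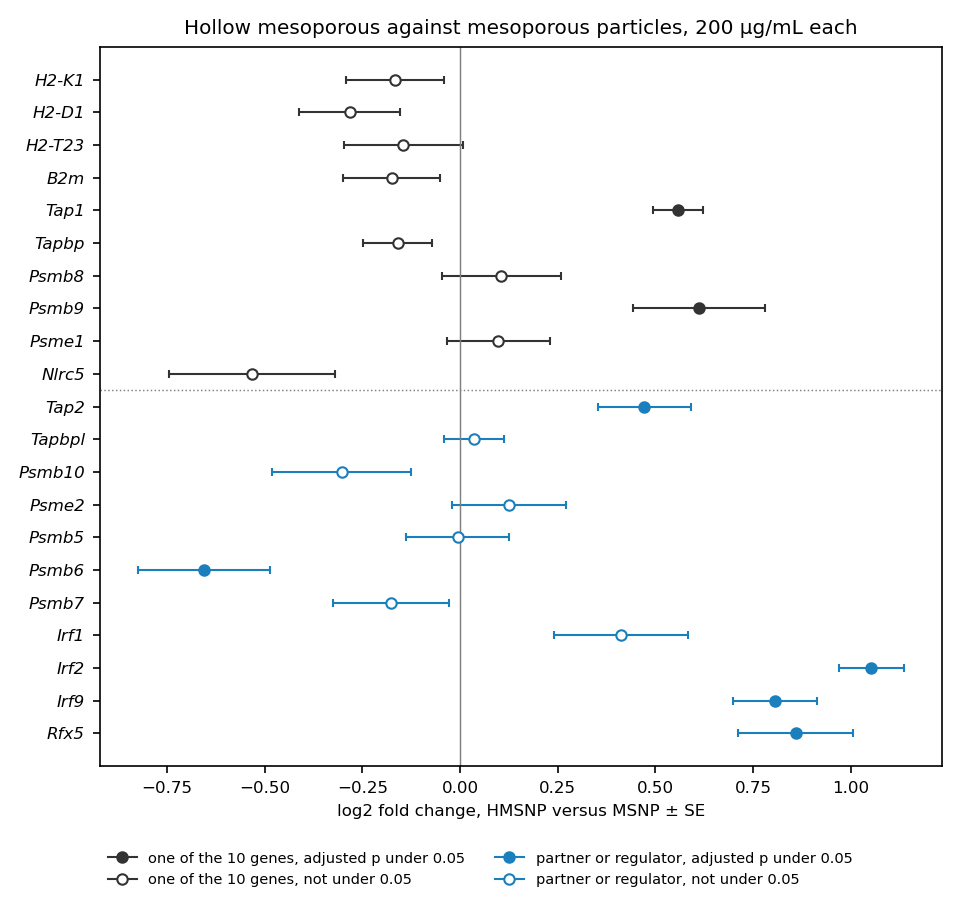
Log2 fold changes of HMSNP against MSNP (horizontal axis, ± SE) for the 10 genes (black) and for named partners and regulators (blue), filled where the adjusted p was under 0.05. Tap1 (0.56), Psmb9 (0.61), Tap2 (0.47), Irf2 (1.05), Irf9 (0.81) and Rfx5 (0.86) are filled to the right of 0 and Psmb6 (-0.66) is filled to the left.

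The summed level of the macrophage markers was 12919 to 13879 CPM under MSNP, 15296 to 19267 in Control and 14826 to 15942 under HMSNP. Most of that sum was Lyz2, at 8927 to 15071 CPM over all libraries. Of the 8 markers, 4 were lower and 1 was higher under MSNP than in Control, where 22.8% of all genes passed. The part of these markers in the changes of the class I genes was not tested. The summed markers of other cell types stayed under 5 CPM for each type in every library.

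Nlrc5 and Psmb9 had the widest ranges of group means among the 10, at 0.87 and 0.74 on the log2 CPM scale. Over the 15 libraries, the genes closest to Nlrc5 in centred log2 CPM were Zfp526, Tbc1d24 and Cep162, with root mean square differences of 0.09, 0.10 and 0.10. For Psmb9 they were Prorsd1, Cd52 and Crip1, at 0.09 each. Control replicate 3 takes part in these profiles, as do the treatments.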

How the data were processed

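Poly(A) RNA of RAW 264.7 cells was sequenced from directional libraries. The deposited values are whole-number counts per gene and library, without normalization. Per the labels, the authors used cutadapt 1.16, STAR 2.7.9a, featureCounts 1.6.3 and GRCm39; the annotation release, the strand setting and whether reads or pairs were counted are not given in the sources used here. Groups came from the labels, and doses from the study's methods. Positions and transcript lengths were taken from GENCODE vM39, which holds 56630 of the 57186 identifiers.

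Genes with at least 10 counts over the 15 libraries were tested in edgeR 4.0.16 (R 4.3.3), with TMM scaling and 1 quasi-likelihood model over all libraries, and p-values were adjusted by Benjamini-Hochberg over all 19839 genes. Calls were made where that adjusted p was under 0.05. SE is the log2 fold change divided by the root of F. The scripts were tested on simulated data. CPM, ratios and motif matches were computed from the same counts or from the GRCm39 sequence. Alternatives were DESeq2 1.42.0, RLE scaling, other filters, a replicate block, fits on 6 libraries, an offset by transcript length, and leaving out each library.

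The 10 genes and the gene lists were chosen with earlier results of these data known. Named beside the 10 were fixed partners and regulators, the gene of smallest p per list and particle, and, for the 2 genes of widest range, the 3 genes of most similar profile. Jak2, Socs1, Jak1, Irf2, Psma6, Psma7, Calr, H2-DMa, Irgm1 and Irgm2 were named after their values were seen. 1 regulator of the fixed list is not reported here, and counts over that list leave it out.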

Additional observations from a re-analysis of the deposited data

How the results depend on the processing

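RLE scaling and the filterByExpr filter left every count as it was. In brackets is the share of all genes that passed in the same fit. Under MSNP against Control the count was 0 with only the 6 libraries of the comparison (13.0%) and 7 with the length offset and without Control replicate 3 (32.1%). For HMSNP against Control it was 0 without a filter (3.82%), 0 with a replicate block (4.46%), 0 with only the 6 libraries (0.439%) and 2 with the length offset and without Control replicate 3 (11.3%). For SNP50 against Control and against SNP100 the latter setting gave 4 (15.6%) and 1 (0.974%), the 1 being Psme1 and not Psmb9. The offset of Psme1 rests on its canonical length of 4227 bases, and a shorter length was not tested. MSNP against SNP100 gave 2 with DESeq2 (23.8%), 8 with only the 6 libraries (40.9%), 4 with the length offset (24.6%) and 7 with the offset and without Control replicate 3 (34.5%). HMSNP against MSNP gave 9 (40.9%), 5 (27.0%) and 8 (36.3%) under the last 3 of these settings. Leaving out 1 library gave 0 to 1 under SNP100 (0.290% to 5.16%), 0 to 5 under SNP50 (0.443% to 18.9%), 2 to 6 under MSNP (17.4% to 33.2%) and 0 to 8 under HMSNP (2.51% to 25.2%) against Control. It gave 0 to 1 for SNP50 against SNP100 (0% to 0.433%), 0 to 8 for MSNP against SNP100 (13.4% to 33.1%) and 1 to 7 for HMSNP against MSNP (16.1% to 33.9%). The highest counts came without Control replicate 3, except under HMSNP against Control, where the 8 came without Control replicate 2, with 7 genes lower and Tap1 higher.

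The sign turned, with a call in the alternative, in 10 cases, each a gene in 1 comparison and 1 alternative fit. Without Control replicate 3 these were H2-D1 (0.21) and Psme1 (0.21) under SNP50, B2m under SNP100 (0.19), SNP50 (0.23) and MSNP (0.16), and Psmb9 under HMSNP (0.23). These were the highest values over the fits that left out 1 library, and the lowest came without Control replicate 2, at -0.14, -0.16, -0.16, -0.12, -0.19 and -0.25 in the same order. With the offset as well they were B2m under MSNP (0.15), Psmb9 under HMSNP (0.25) and Psme1 under SNP50 (0.27), and with the offset alone B2m under MSNP (0.14). Such cases were taken over 70 values (10 genes in 7 comparisons), each in 15 fits that left out 1 library and in 8 other alternatives. Beside the sign changes above, 26 cases lost and 68 gained a call, and 64 sign changes with a call in neither fit were not counted. The cause was not tested.

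Libraries of the same replicate number did not deviate together, with correlations of their deviations from -0.52 to 0.57 and 0 of 7 comparisons with every pair over 0.1, and the numbers mark no stated pairing. The replicate block changed 1 count of the 7, HMSNP against Control, from 1 to 0. The lowest count of the 10 genes in any library was 243, and each group had 3 libraries.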

Other observations

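Of 12 other genes that interferon-γ is known to induce 10 were tested, and against Control 1 was lower under SNP100, 1 was lower under SNP50, and 2 were lower and 1 was higher under MSNP, where 0.912%, 1.41% and 22.8% of all genes passed. Under HMSNP edgeR called 0 of the 10 (5.16% of all genes), with 3 at an unadjusted p under 0.05, as were 4771 of all 19839 genes. DESeq2 also called 0 of the 10 (15.1% of all genes it tested). Cxcl10, a chemokine that attracts T cells, had 2.92, 2.75 and 3.70 CPM in Control, 2.06, 1.55 and 1.86 under SNP100, 1.62, 1.84 and 1.28 under SNP50, 0.43, 0.38 and 0.53 under MSNP and 2.29, 2.49 and 2.25 under HMSNP. Against Control it was lower under SNP100 (-0.78 ± 0.17, adjusted p = 0.0392), SNP50 (-0.98 ± 0.17, adjusted p = 0.0101) and MSNP (-2.80 ± 0.20, adjusted p = 6.36e-08, edgeR with Benjamini-Hochberg). Irgm2 was lower under MSNP (-1.29 ± 0.22) while its relative Irgm1 was higher (0.65 ± 0.07). These calls held when Control replicate 3 was left out, with Cxcl10 at -0.64 ± 0.17 under SNP100, -0.84 ± 0.17 under SNP50 and -2.65 ± 0.21 under MSNP, Irgm2 at -1.54 ± 0.15 and Irgm1 at 0.60 ± 0.06. Of the 10, 5 were higher and 1 was lower in HMSNP than in MSNP (9.22% and 11% of all genes).

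Of 7 class II genes, 2 passed under MSNP, where 22.8% of all genes did, and both encode the peptide exchanger H2-DM. H2-DMa had 29.5, 31.1 and 44.9 CPM in Control and 17.6, 18.5 and 16.6 under MSNP (-1.0 ± 0.12, adjusted p = 1.67e-05), and H2-DMb1 had 4.02, 3.18 and 3.96 CPM in Control and 0.96, 0.76 and 1.19 under MSNP (-1.95 ± 0.19, adjusted p = 1.34e-06, edgeR with Benjamini-Hochberg). Under HMSNP, H2-DMa was lower than in Control as well (-0.45 ± 0.12, adjusted p = 0.0445). The highest Control value of H2-DMa was that of replicate 3, and without this library the differences were -0.78 ± 0.06 under MSNP and -0.23 ± 0.06 under HMSNP (adjusted p = 0.0161, edgeR with Benjamini-Hochberg), while H2-DMb1 stood at -1.89 ± 0.20 under MSNP.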
